A study of Pan troglodytes with 217 samples.

Results

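The genes that write, copy and remove DNA methylation were examined in single cells of chimpanzee blastoids, blastocyst-like structures that form from naive induced pluripotent stem cells. The 9 genes are DNMT1, UHRF1, DNMT3A, DNMT3B, DNMT3L, TET1, TET2, TET3 and TDG. They were chosen by name for their known function, with earlier results of these data known, and account for 10 of the 33729 gene identifiers counted, since DNMT1 has 2 identifiers. They are described in the cells with at least 8000 detected genes, and 24 other sequenced cells fell short of that number. The cells just outside and just inside it had 7984 and 8199 genes.

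All cells belong to a single group and share 1 treatment. Naive cells, which were kept in medium with an inhibitor of the histone methyltransferase EZH2 (EPZ-6438), were clustered in PALY medium, moved to ALY and then to N2B27, and the blastoids were collected at day 4. Mural trophectoderm, the part of the outer layer away from the inner cells, was separated with glass needles before dissociation. The cDNA of single cells was sequenced at full length by SMART-seq2, which adds no molecular identifiers. The labels give neither the blastoid nor the stem cell line nor the dissected part of a cell, so the cells form 1 sample, no test was made, and intervals cover counting error only.

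Methyl groups on cytosine are set by the de novo methyltransferases DNMT3A and DNMT3B, which DNMT3L, a relative without catalytic activity, stimulates. After replication DNMT1 copies the pattern to the new strand, guided there by UHRF1, which binds hemimethylated DNA. The TET enzymes oxidise methylcytosine, and TDG, a DNA glycosylase, cuts the oxidised base out so that base excision repair can replace it. The genome of the mammalian preimplantation embryo is poor in methylation, and naive pluripotent cells share this property.

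Clustering without the 9 genes and without the other genes of the pathway gave a class of 50 epiblast-like and one of 32 hypoblast-like cells. The trophectoderm-like cells formed a cluster of 50 cells with high CCR7, a chemokine receptor used here as a trophectoderm marker, and one of 61 cells with low CCR7. Median depth was 3951119, 3978822 and 3960857 reads in epiblast-, hypoblast- and trophectoderm-like cells, and all cells that passed lay between 1679888 and 25630392 reads. At least 3 of the 10 trophectoderm markers reached 10 CPM (reads of a gene per 1000000 reads of the cell) in every trophectoderm-like cell, but also in 20 epiblast-like cells of 50 and in 24 hypoblast-like cells of 32. For the epiblast list the same held in 49 epiblast-, 20 hypoblast- and 11 trophectoderm-like cells, and for the hypoblast list in 7, 32 and 6 cells. The mean log2(CPM + 1) of the hypoblast markers lay above that of every other cell in 23 of the 32 hypoblast-like cells, and in the other 9 it lay within the range of the epiblast-like cells, which reached 3.35. These 9 cells are described below with the members that varied with the markers. No list for amnion, primitive streak, extraembryonic mesoderm or 8-cell stage was met in more than 3 cells of a class, while 3 of 4 primordial germ cell genes were at 10 CPM in 36 of 50 epiblast-like cells.

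Levels are given as CPM of the reads summed over a class and as the CPM of its lowest, median and highest cell. CPM was not divided by transcript length, so levels are compared between cells and not between genes.

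TET2 was several-fold higher in trophectoderm-like cells than in the other classes. Its lowest, median and highest levels were 0, 26.3 and 644 CPM in epiblast-like cells and 0, 36.04 and 442 CPM in hypoblast-like cells. In trophectoderm-like cells they were 0, 368 and 2261 CPM. The interquartile range of the trophectoderm-like cells lay above that of both other classes, while the full ranges overlapped. Summed over cells, TET2 stood at 407 CPM (95% Poisson interval 405 to 409) in trophectoderm-like, 90.4 (88.8 to 92.1) in hypoblast-like and 67.4 (66.3 to 68.5) in epiblast-like cells. This was 6.04-fold and 4.50-fold higher in trophectoderm-like cells than in epiblast- and hypoblast-like cells. All trophectoderm-like cells but 1 reached 10 CPM. Among epiblast-like cells 34 of 50 did, and among hypoblast-like cells 21 of 32. In epiblast-like cells TET2 varied with the mean of the trophectoderm markers (Spearman rho = 0.656 over 50 cells), and also with the hypoblast list (0.495) and against the epiblast list (-0.399). Without the 14 epiblast-like cells that held at least 5 trophectoderm markers and at least 5 epiblast or hypoblast markers at 10 CPM, the epiblast-like level was 37.1 CPM. The part of mixed cells in the epiblast-like level was not tested further.

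TDG followed the same order. The lowest, median and highest cells had 33.5, 123.1 and 302 CPM in the epiblast-like class and 34.1, 145.9 and 447 CPM in the hypoblast-like class. The values were 61.1, 337 and 593 CPM in the trophectoderm-like class. Again the interquartile range of trophectoderm-like cells lay above both others and the full ranges overlapped. The summed level was 324 CPM (323 to 326) in trophectoderm-like cells, 2.40-fold that of epiblast-like cells (135.5, 133.9 to 137.03) and 2.04-fold that of hypoblast-like cells (159.04, 156.9 to 161.2). The second ratio lay close to the 2-fold limit used below and fell under it in 4 of 20 other settings. Every cell of the 3 classes had a TDG read.

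TET1 was less uneven. Its lowest, median and highest levels were 75.6, 229.5 and 1028 CPM in epiblast-like, 61.3, 198.7 and 651 CPM in hypoblast-like, and 0, 155.6 and 945 CPM in trophectoderm-like cells. The interquartile ranges of the 3 classes overlapped. Summed levels were 261.2 (259.1 to 263.4), 246.5 (243.8 to 249.2) and 177.05 (175.9 to 178.2) CPM, so the gene was 1.48-fold higher in epiblast- than in trophectoderm-like cells, within 2-fold. The order of epiblast- and hypoblast-like cells turned with scaling: the log2 ratio was 0.08 on total reads and -0.10 on sums scaled by median of ratios, and it was also below 0 with TMM scaling.

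TET3 was near the detection limit. Reads occurred in 12 epiblast-like cells out of 50, in 9 hypoblast-like cells out of 32, and in 58.6% of the trophectoderm-like cells (65 cells). The highest cell of each class had 7.68, 4.12 and 34.3 CPM, and the medians were 0, 0 and 0.447 CPM. Only 5 cells reached 10 CPM, all of them trophectoderm-like. After every cell was thinned to 2532312 reads, which left 48, 25 and 100 cells, the shares with a read were 22.9%, 28% and 52%. The summed level was 5.74-fold higher in trophectoderm- than in epiblast-like cells (2.45 against 0.428 CPM) and 7.01-fold higher than in hypoblast-like cells (0.350 CPM). These ratios rest on 1267, 92 and 45 reads, and 377 of the trophectoderm-like reads came from 1 cell. Without it the ratios were 4.12-fold and 5.03-fold.

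**Figure D1:**
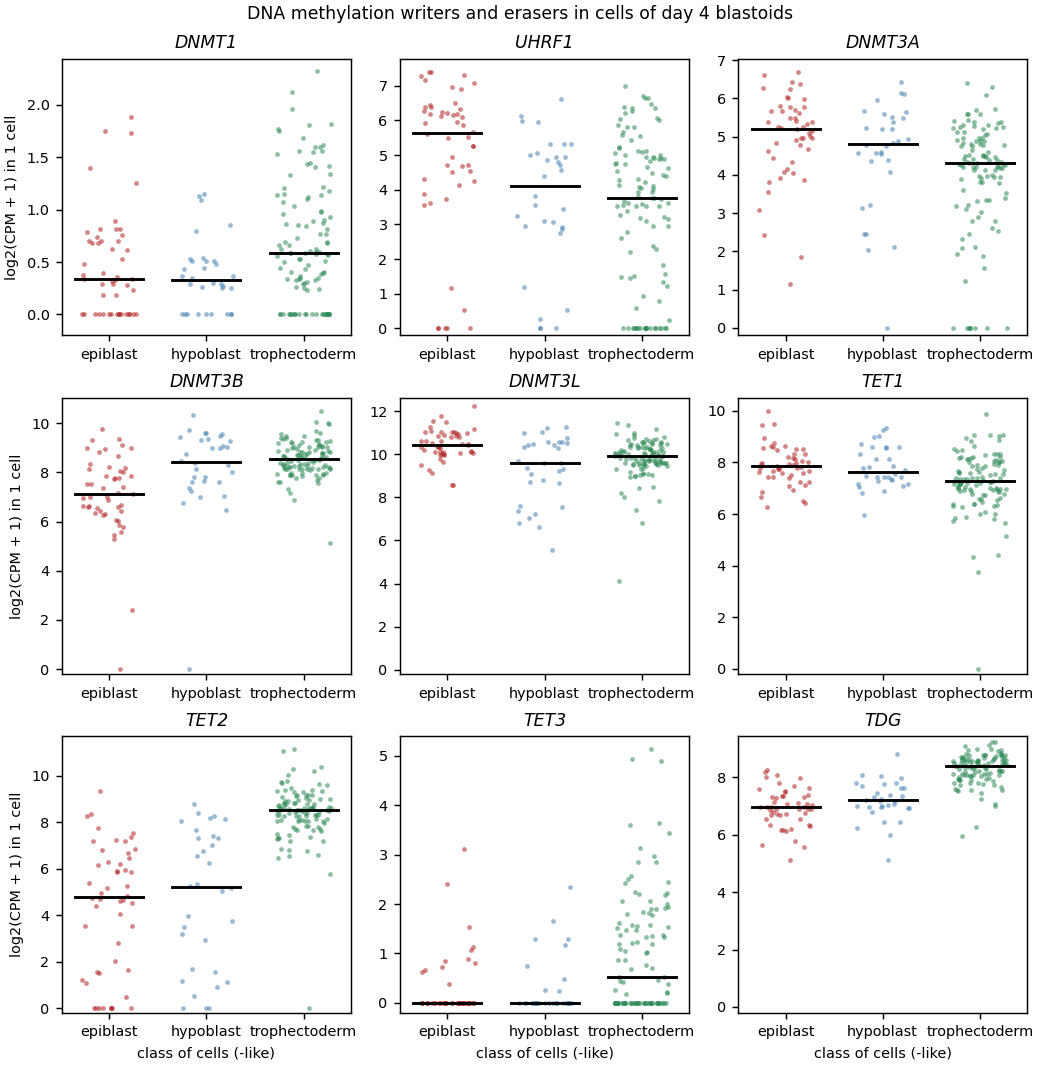
Each point is 1 cell, placed by its class on the x axis and by log2(CPM + 1) of the gene on the y axis, and black bars mark medians. The y axes differ between panels. The trophectoderm-like cells sit highest for TET2 and TDG (medians of 368 and 337 CPM), and the epiblast-like cells sit lowest for DNMT3B (median of 138.5 CPM).

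The share of TET2 among the reads of the TET family differed between classes. Such a share also depends on the lengths of the genes, which were not used, so it is set beside the same share in other classes and says nothing of which gene has more transcripts. TET2 made up 20.5% of TET reads in epiblast-like cells (95% Clopper-Pearson interval 20.2% to 20.8%) and 26.8% (26.4% to 27.2%) in hypoblast-like cells. In trophectoderm-like cells it made up 69.4% (69.2% to 69.6%). The shares of the median cell were lower in the first and second of these classes, at 8.68% and 14.4%, and 69.1% in the third. Without mixed cells the epiblast-like share was 12.8%. More reads fell on TET2 than on TET1 in all but 9 of the trophectoderm-like cells (91.9%, 85.2% to 96.2%). The same held in 3 epiblast-like cells out of 50 (6%, 1.25% to 16.5%) and 5 hypoblast-like cells out of 32 (15.6%, 5.28% to 32.8%). Both trophectoderm-like clusters showed it, in 46 of 50 CCR7-high and 56 of 61 CCR7-low cells. Across trophectoderm-like cells TET1 and TET2 rose and fell together (Spearman rho = 0.477), which was not seen in epiblast-like cells (rho = -0.08 over 50 cells). In hypoblast-like cells rho was 0.260. Points share library preparation and depth, and such coefficients are given as descriptions.

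**Figure D2:**
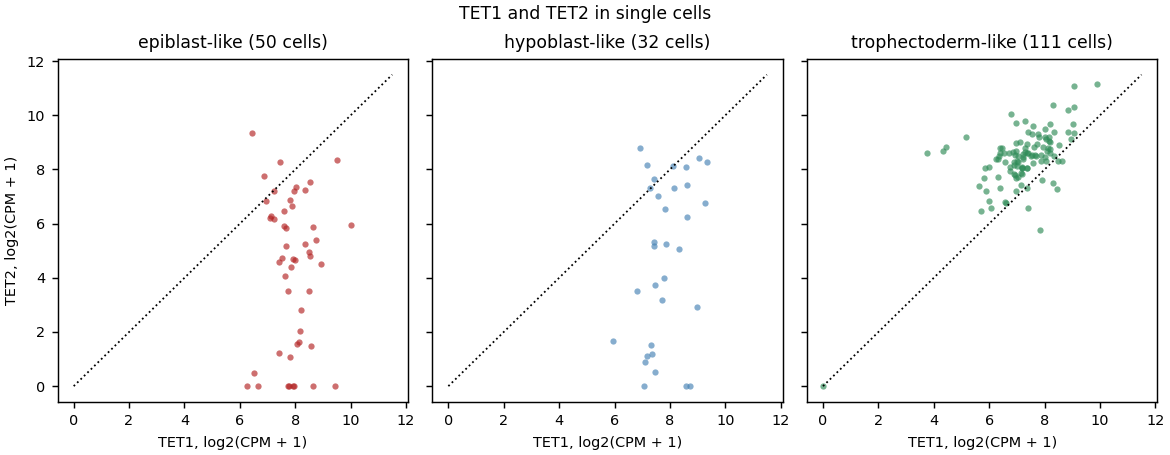
Each point is 1 cell, with log2(CPM + 1) of TET1 on the x axis and of TET2 on the y axis, in a panel for each class, and the dotted line marks equal levels. In the trophectoderm-like panel 91.9% of cells lie above the line, while 47 of 50 epiblast-like cells lie below it.

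Among the de novo methyltransferases, DNMT3B was lowest in epiblast-like cells. Its lowest, median and highest levels were 0, 138.5 and 861 CPM in the epiblast-like class and 0, 343 and 1272 CPM in the hypoblast-like class. They were 33.6, 377 and 1456 CPM in the trophectoderm-like class. The interquartile ranges of epiblast- and trophectoderm-like cells did not overlap, those of epiblast- and hypoblast-like cells did, and hypoblast- and trophectoderm-like cells were alike in their sums (414 and 403 CPM). The summed level of epiblast-like cells, 209.8 CPM (207.8 to 211.7), was 1.92-fold lower than that of trophectoderm-like and 1.98-fold lower than that of hypoblast-like cells, just within 2-fold. Both ratios passed 2-fold on TMM-scaled sums and without mixed cells.

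DNMT3A was highest in epiblast-like cells. The lowest, median and highest epiblast-like cells had 1.23, 36.01 and 102.5 CPM, and the hypoblast-like cells 0, 26.97 and 84.6 CPM. The trophectoderm-like cells had 0, 18.7 and 83.5 CPM, and the interquartile ranges of all classes overlapped. The summed levels were 39.2 (38.3 to 40.01), 31.5 (30.6 to 32.5) and 20.5 (20.1 to 20.9) CPM. The gene was thus 1.91-fold higher in epiblast- than in trophectoderm-like cells, again just within 2-fold, and it passed that limit without mixed cells (log2 of 1.05, against 0.93). DNMT3A reads were 15.7% of DNMT3A and DNMT3B reads in epiblast-like cells (15.4% to 16.04%), 7.07% (6.86% to 7.28%) in hypoblast-like cells and 4.84% (4.75% to 4.93%) in trophectoderm-like cells. DNMT3A had more reads than DNMT3B in 2, 1 and 0 cells of these classes.

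DNMT3L had reads in every cell. Its lowest, median and highest levels were 380.2, 1399 and 4768 CPM in epiblast-like cells and 45.4, 776 and 2470.9 CPM in hypoblast-like cells. They were 16.5, 982 and 2797 CPM in trophectoderm-like cells. The interquartile ranges overlapped between all classes, and the summed levels of 1584 (1578 to 1589), 954 (949 to 959.8) and 1037 (1035 to 1040.1) CPM differed by less than 2-fold. 

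Relative to its mean, DNMT3L varied most from cell to cell in the hypoblast-like class (coefficient of variation 0.754, against 0.508 in epiblast- and 0.467 in trophectoderm-like cells), and its level fell as hypoblast markers rose. The Spearman rho between DNMT3L and the mean of the 10 hypoblast markers was -0.812 over the 32 cells. For TET2 it was -0.594 and for DNMT3A -0.493, while DNMT3B had 0.518. Markers of the other lineages moved with these genes in the same cells: DNMT3L had a rho of 0.596 with the epiblast and 0.489 with the trophectoderm list, and TET2 had 0.494 and 0.404. Their part in the pattern was not tested. DNMT3L and TET2 varied together in this class (rho = 0.737), which was not seen in epiblast-like (-0.04) or trophectoderm-like cells (-0.15). In the 14 hypoblast-like cells with FOXA2, an endoderm transcription factor of the later hypoblast, at 10 CPM or more, the lowest, median and highest DNMT3L levels were 45.4, 293 and 1503 CPM, and those of TET2 were 0, 1.73 and 442 CPM. In the 18 cells under that level they were 195.9, 1417 and 2470.9 CPM for DNMT3L and 1.90, 143.5 and 340.2 CPM for TET2. DNMT3B ran the other way, at 531 against 331 CPM summed. The interquartile ranges of these 2 sets of cells did not overlap for DNMT3L or TET2. FOXA2 is itself 1 of the 10 hypoblast markers, so this split partly restates the correlation with their mean and is not a separate observation. The lists of lineage markers and the FOXA2 limit were set beside the members after the data were seen.

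The 9 hypoblast-like cells with weak hypoblast markers held part of this pattern. In all 9 the mean of the epiblast list (2.13 to 4.69) was above that of the hypoblast list (1.77 to 2.69), so their own markers go against the name of the class, while this was so in 1 of the other 23. DNMT3L was at 1610.1 CPM in them and at 660.0 CPM in the other 23, and TET2 was at 165.1 and 56.9 CPM. Without these 9 cells DNMT3L was past 2-fold higher in epiblast- than in hypoblast-like cells (log2 ratio of 1.26, against 0.73 with them), DNMT3B was past 2-fold lower (-1.25, against -0.98), and TET2 turned from -0.42 to 0.24. Without the mixed cells instead, the log2 ratio of DNMT3L was also past 2-fold, at 1.07. In that setting TET2 was past 2-fold lower in epiblast- than in hypoblast-like cells, at -1.07, so the sign of its ratio differed between these settings. No ratio of hypoblast- to trophectoderm-like cells crossed the 2-fold limit without the 9 weakly marked cells.

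**Figure D3:**
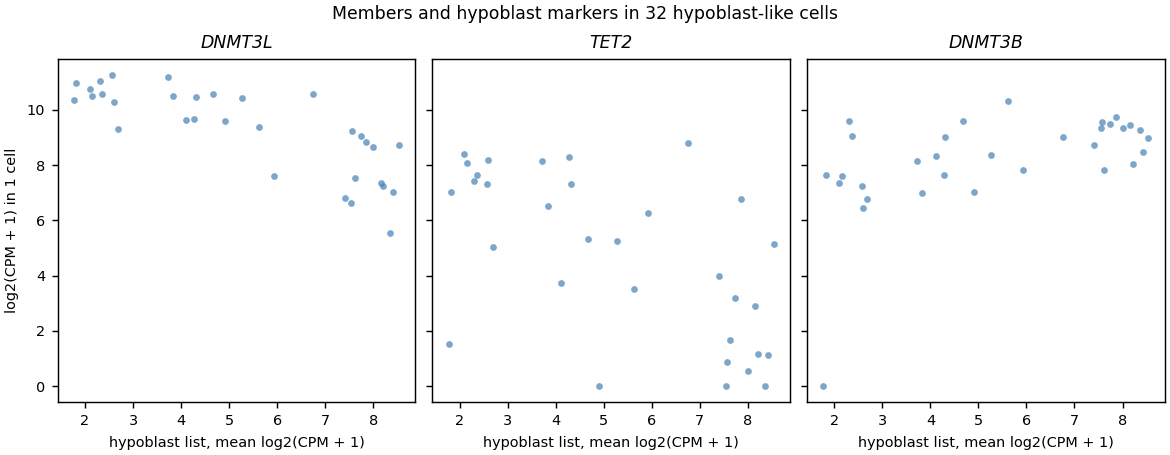
Each point is 1 of the 32 hypoblast-like cells, with the mean log2(CPM + 1) of 10 hypoblast markers on the x axis and log2(CPM + 1) of DNMT3L, TET2 or DNMT3B on the y axis. DNMT3L and TET2 decline along the axis (rho = -0.812 and -0.594), and DNMT3B goes up (rho = 0.518).

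Of the maintenance pair, UHRF1 was highest in epiblast-like cells. Its lowest, median and highest levels were 0, 48.6 and 167.7 CPM there, 0, 16.6 and 96.2 CPM in hypoblast-like cells, and 0, 12.6 and 126.8 CPM in trophectoderm-like cells. Cells without a read occurred in every class (5 epiblast-, 3 hypoblast- and 20 trophectoderm-like cells), and the interquartile ranges overlapped. The summed level of 57.9 CPM (56.9 to 58.9) in epiblast-like cells was 2.49-fold that of trophectoderm-like cells (23.3, 22.9 to 23.7) and 2.54-fold that of hypoblast-like cells (22.8, 22.02 to 23.7). Both ratios stayed past 2-fold under every alternative that kept that limit.

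UHRF1 went with DNA replication genes from cell to cell. Its Spearman rho with the mean of 20 S phase genes, which include neither UHRF1 nor DNMT1, was 0.673 in epiblast-like, 0.527 in hypoblast-like and 0.696 in trophectoderm-like cells. With the G2 and M phase list rho was 0.177, 0.118 and 0.02, and with the number of detected genes 0.341, 0.204 and 0.377, whose part was not tested. The class median of the S phase list was lowest in epiblast-like cells, where UHRF1 was highest. The list stood at 5.98 in epiblast-like, 6.37 in hypoblast-like and 6.58 in trophectoderm-like cells on the log2(CPM + 1) scale. Its part in the class difference of UHRF1 was not tested. Of all genes compared, the 3 most like UHRF1 over the cells of all classes were MCM6 (rho = 0.560), MCM5 (0.550) and PRIM1 (0.522), which are subunits of the replicative helicase and of the primase. After class means were subtracted they were GINS2 (0.584), MCM5 (0.574) and WDR76 (0.531). MCM5, MCM6, PRIM1 and GINS2 are themselves in the S phase list. In trophectoderm-like cells TET2 fell as the S phase list rose (rho = -0.424), and its rho with the number of detected genes was -0.297.

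**Figure D4:**
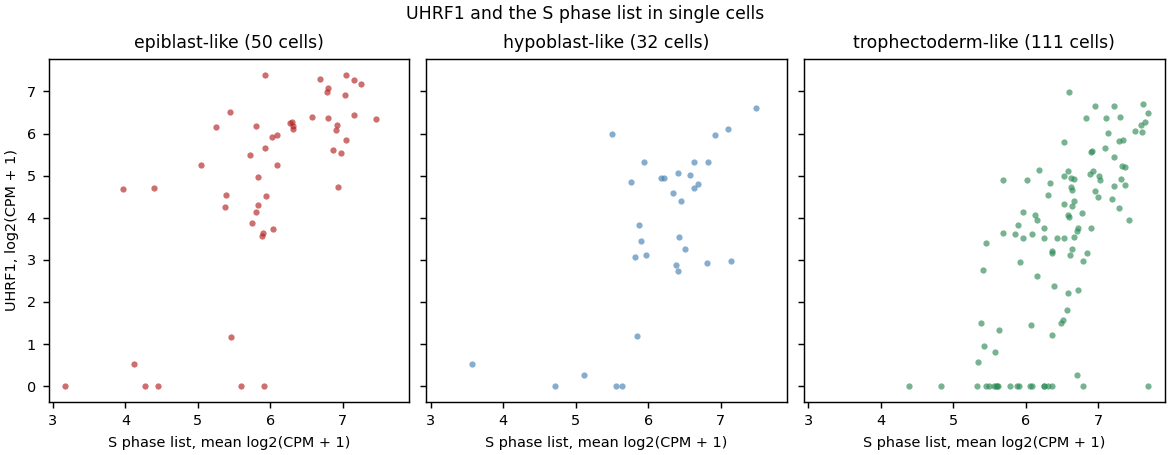
Each point is 1 cell, with the mean log2(CPM + 1) of 20 S phase genes on the x axis and log2(CPM + 1) of UHRF1 on the y axis, in a panel for each class. UHRF1 goes up with the list in all 3 classes (rho between 0.527 and 0.696), and cells without a read lie mainly at the lower end of the list.

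DNMT1 was hardly counted, and its level is uncertain. Its 2 identifiers stood at 0.464 and 0.190 CPM over all classes, together 0.653 CPM, and no cell reached 10 CPM. Among all symbols, the 710 that belong to more than 1 identifier had a median of 0.154 CPM, and 70.3% of them lay under 1 CPM. The 17336 symbols with a single identifier had a median of 5.23 CPM, and 36.5% lay under 1 CPM. Among other listed genes with 2 identifiers, UNG was at 1.63, AURKB at 1.54 and STK31 at 0.522 CPM. STAR leaves out a read that overlaps more than 1 annotated gene, and how many reads this removed from DNMT1 was not tested. Its counts stood at 0.423 CPM in epiblast-like, 0.319 in hypoblast-like and 0.833 in trophectoderm-like cells, from 91, 41 and 430 reads.

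The members were set beside all genes as a description. With a 2-fold limit, 1 of the 9 genes (UHRF1) was higher in epiblast- than in trophectoderm-like cells, where 22.8% of 15561 genes with a read in at least 20 cells were, and 3 (TET2, TET3 and TDG) were lower, where 13.1% of all genes were. Between epiblast- and hypoblast-like cells UHRF1 was higher and no member was lower, beside 20.4% and 7.98% of all genes. Between hypoblast- and trophectoderm-like cells no member was higher and 4 (DNMT1, TET2, TET3 and TDG) were lower, beside 15.2% and 16.5% of all genes. DNMT1 and TET3 rest on only 41 and 45 hypoblast-like reads, and TDG lay close to the limit. With a pseudocount of 10 CPM the count lower was 1. The median log2 ratio of the members was -0.94, 0.29 and -0.12 in these comparisons, and that of all genes was 0.12, 0.20 and -0.05. All 3 comparisons share cells, and their counts are not independent. Relative to the shift of all genes between epiblast- and trophectoderm-like cells, DNMT1 and DNMT3B were also lower on TMM-scaled sums, which made 5 members lower. Whether the members differ as a group from other genes was not tested.

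**Figure D5:**
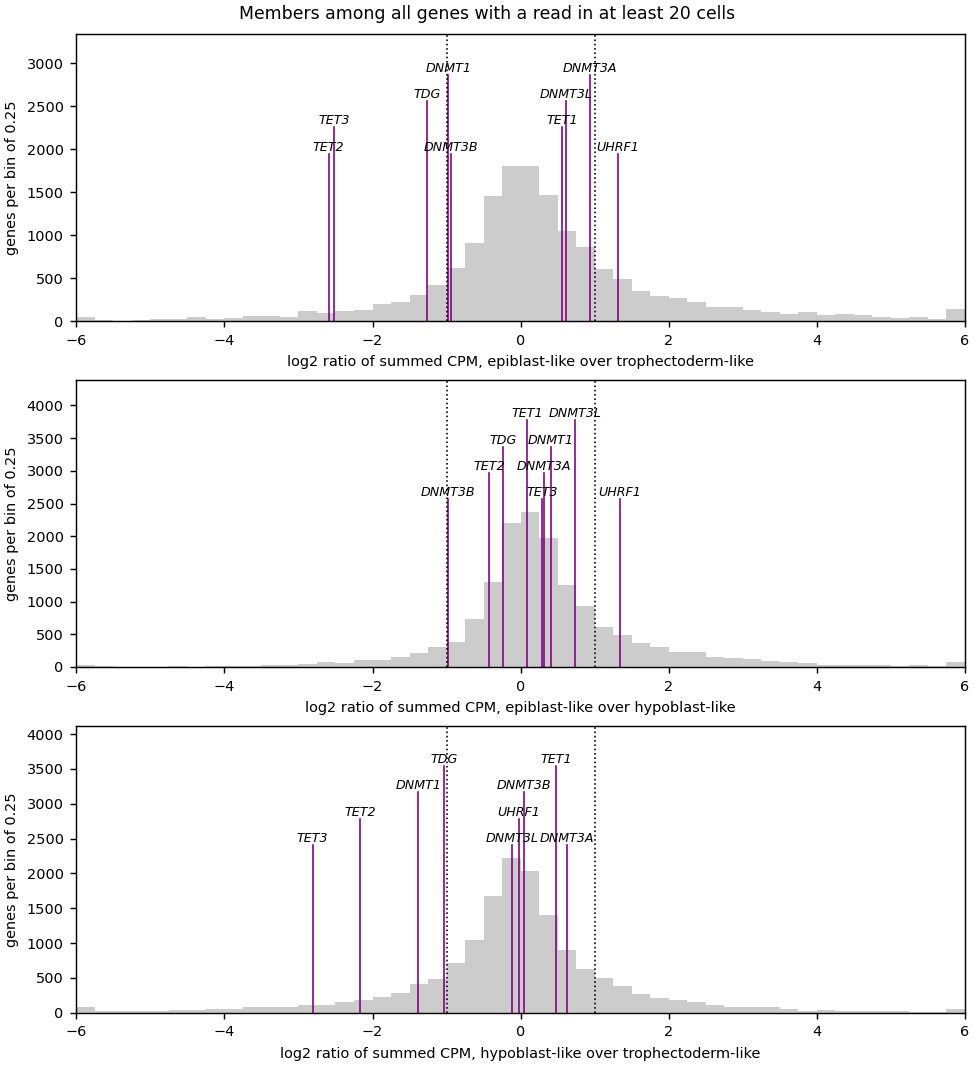
Grey bars count the genes (y axis, per bin of 0.25) by the log2 ratio of summed CPM between a pair of classes (x axis), with genes beyond 6 counted in the outermost bins. Purple lines mark the 9 members and dotted lines the 2-fold limit. TET2 and TET3 lie far to the left wherever trophectoderm-like cells are the second class (log2 ratios between -2.81 and -2.17).

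Within the trophectoderm-like cells UHRF1, DNMT1 and TET3 were past 2-fold higher in the CCR7-high cluster. UHRF1 stood at 32.8 CPM (32.1 to 33.5) in CCR7-high and 14.6 (14.1 to 15.03) in CCR7-low cells, a 2.25-fold difference with overlapping interquartile ranges. This ratio (log2 of 1.17) fell under 2-fold in 5 of 18 other settings, to a lowest log2 of 0.76. The S phase list was higher in the CCR7-high cells as well (median 6.81 against 6.31), and within each cluster UHRF1 varied with it (rho = 0.601 and 0.639). DNMT1 and TET3 were low in both clusters (1.33 against 0.378 CPM, with interquartile ranges that did not overlap, and 3.62 against 1.39 CPM). Without the CCR7-high cell that held 377 of 893 TET3 reads, TET3 was at 2.19 CPM there and its ratio was 1.58-fold, under the limit. The 3 members stand beside 11.8% of all genes, and no member was past 2-fold lower, beside 11.1%. TET1 was 1.67-fold lower in CCR7-high cells. For CCR7-high against CCR7-low cells TET2 stood at 347 against 462 CPM, DNMT3A at 18.4 against 22.4, DNMT3B at 425 against 382, DNMT3L at 1001 against 1071 and TDG at 349 against 302. The border between these clusters was less firm than that between lineages: with the cells taken in numerical order it lay at 39 and 72 cells.

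The genes that varied most like the other members over the cells of all classes are named here without their levels by class. For TET2 they were RHOU (rho = 0.793), GATA3 (0.787), a trophectoderm transcription factor, and BTG1 (0.761). For TDG they were GATA3 (0.752), HSD17B1 (0.727), an oestrogen-producing enzyme, and MPZL1 (0.725). After class means were subtracted RHOU (0.589), GALNT6 (0.539) and GATA3 (0.496) led for TET2, and no gene passed 0.370 for TDG. For DNMT3L the leading gene was RPUSD3 with and without class means (0.652 and 0.588). For DNMT3B they were MYOF (0.531), LAMB1 (0.528) and YAP1 (0.525), for TET1 MAP4 (0.562), AKAP12 (0.547) and CXADR (0.527), and for DNMT3A SDHC (0.497), PDXP (0.488) and RPUSD3 (0.480). After class means were subtracted CD24 (0.450) led for DNMT3B, FGFR3 (0.532) for TET1 and RPUSD3 (0.407) for DNMT3A. The counts of DNMT1 and TET3 were too sparse for their coefficients to be read.

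The partners of the members were described from 6 lists with 48 genes. Of 7 cofactors of maintenance, 1 (PCLAF) was past 2-fold lower in epiblast- than in trophectoderm-like cells and none was higher (median log2 ratio of the list -0.44), beside 13.1% of all genes lower and 22.8% higher and a median of 0.12. PCLAF, a PCNA-binding protein, was at 4.27 CPM in epiblast-like, 30.2 in hypoblast-like and 70.7 in trophectoderm-like cells. The share of cells with a read was 38% in the epiblast-like, 78.1% in the hypoblast-like and 92.8% in the trophectoderm-like class. HELLS, a chromatin remodeller, was near level at 121.5, 118.7 and 131.5 CPM, CDCA7, its activator, stood at 179.6, 98.6 and 109.5 CPM, and the ubiquitin protease USP7 at 245.04, 242.9 and 154.4 CPM.

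Of 11 tested genes that guard or direct methylation, 4 were higher in epiblast- than in trophectoderm-like cells and 1 was lower (median 0.68), beside the same 22.8% and 13.1% of all genes. DPPA3, which keeps UHRF1 off chromatin, showed the largest difference. Its lowest, median and highest levels were 39.6, 1326 and 2790.0 CPM in epiblast-like, 207.8, 1140.1 and 4018 CPM in hypoblast-like, and 0, 110 and 2200 CPM in trophectoderm-like cells. Epiblast- and hypoblast-like cells were alike in their sums (1353 and 1285 CPM) and trophectoderm-like cells lower (219.1 CPM). Within the latter, DPPA3 was at 105.5 CPM in CCR7-high and 323 CPM in CCR7-low cells, the reverse of UHRF1. Both genes, however, were higher in epiblast- than in trophectoderm-like cells. QSER1, which protects bivalent promoters from methylation, was at 29.1, 4.77 and 9.72 CPM in epiblast-, hypoblast- and trophectoderm-like cells, and the histone methyltransferase NSD2 at 6.35, 12.1 and 17.03 CPM.

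In base excision repair, which follows TDG, 4 of 11 genes were higher in epiblast- than in trophectoderm-like cells and none was lower (median 0.58), beside 22.8% and 13.1% of all genes, while TDG itself was lower. They were XRCC1, PARP1, NEIL1 and NEIL2. The glycosylase NEIL2 was at 18.99, 7.73 and 2.85 CPM in epiblast-, hypoblast- and trophectoderm-like cells, and the scaffold XRCC1 at 23.1, 19.4 and 8.38 CPM. PARP1, which senses DNA breaks and was named after its values were seen, was at 742, 327 and 196.9 CPM. NEIL3 was highest in hypoblast-like cells, at 21.4 CPM against 9.0 and 9.54.

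Of 6 genes of methyl donor and TET cosubstrate supply, 1 was lower in epiblast- than in trophectoderm-like cells and none higher (median -0.24), beside 13.1% and 22.8% of all genes and their median of 0.12. IDH1, which makes the cosubstrate of TET enzymes in the cytosol, was at 1139 CPM in hypoblast-like cells against 368 in epiblast-like and 309 in trophectoderm-like cells. Of 7 readers of methylated DNA none crossed 2-fold between epiblast- and trophectoderm-like cells (median 0.22), beside the same shares. ZBTB33 (Kaiso) had 5.23, 2.63 and 10.1 CPM in epiblast-, hypoblast- and trophectoderm-like cells. Among 4 tested demethylation adaptors and deaminases 2 were higher in epiblast-like cells, GADD45B among them, and 2 were lower, among them GADD45G (median -0.02), again beside 22.8% and 13.1% of all genes.

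Germline genes whose promoters are methylated in somatic cells were counted as possible targets. Only 6 of 10 had a read in at least 20 cells, and 3 of these (SYCP3, SYCE1 and STK31) were past 2-fold higher in epiblast- than in trophectoderm-like cells, with none lower (median 1.25, beside 22.8% and 13.1% of all genes). The meiotic gene SYCP3 was at 164.2, 92.4 and 57.4 CPM in epiblast-, hypoblast- and trophectoderm-like cells, while SYCE1 (2.14 against 0.105 CPM in epiblast- and trophectoderm-like cells) and STK31 (1.06 against 0.188 CPM) were low. TDRD1, of the piRNA pathway, was within 2-fold of trophectoderm-like cells, at 29.4, 10.1 and 14.9 CPM. DAZL had no read in any of the 3 classes. Methylation itself was not measured in these cells.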

How the data were processed

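The authors deposited read counts per gene for 217 blastoid cells and 33729 chimpanzee Ensembl identifiers, not normalized. According to the study's methods reads were trimmed with FastP, aligned to Pan_tro_3.0 and counted with STAR. The submitters' processing notes instead name Trim Galore 0.6.6, STAR 2.7.7a and the human build GRCh38. All identifiers are chimpanzee ones, so the methods' build was taken. The other experiments were not analysed here. No columns were set aside.

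Symbols came from a table of identifiers (18783 matched), and counts of identifiers with the same symbol were summed. Cells with at least 4000 reads and 8000 genes were kept. The study states these limits but reports fewer cells left than the 193 kept here, and the cause was not tested. Scanpy 1.11.5 and leidenalg 0.10.2 clustered them (15747 genes, 50 components, 30 neighbours, resolution 1, seed 0) without the members and pathway lists. Clusters were named from listed epiblast, hypoblast and trophectoderm markers (3 at 1 CPM needed). Doublets were not called, and cells with several lineages' markers were counted. CPM were computed from summed counts. A ratio against a class with few reads used a floor of 3 counts. Intervals are at 95% (exact Poisson, Clopper-Pearson). Thinned cells held 2532312 reads, the 10th percentile of totals, which left out 20 cells. Likeness was taken over 9442 genes with a symbol and a read in at least 50% of cells. Identical cells were not found (0 pairs).

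The members and all lists were chosen with earlier results of these data known. Named pathway genes are those with the largest ratio in each direction at 10 CPM or more, and for each member the 3 genes with the highest rho. HELLS, XRCC1 and PARP1, where not so named, and the FOXA2 split were added afterwards. The scripts were tested on simulated data. Alternatives covered the cell filter, the clustering, mixed cells, thinning, the summary of cells, scaling (edgeR 4.0.16 TMM and median of ratios), pseudocounts, the fold and the background. Other tools were R 4.3.3, scipy 1.17.1, pandas 2.3.3, numpy 2.4.6 and Python 3.11.15.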

Additional observations from a re-analysis of the deposited data

Results flagged for a closer look

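The 24 cells with fewer than 8000 detected genes, which entered no comparison, also held reads of every member, above the limit of 3 reads. Their summed levels were 1.03 CPM for DNMT1, 9.38 for DNMT3A, 281 for DNMT3B, 630.4 for DNMT3L, 5.96 for UHRF1, 264.2 for TET1, 310 for TET2, 6.35 for TET3 and 150 for TDG. UHRF1, DNMT3A and DNMT3L lay below their levels in all 3 classes, and DNMT1, TET1 and TET3 above. These cells had between 5792 and 3863814 reads, and their class was not determined.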

How the results depend on the processing

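No paired analysis was possible because the cells form 1 sample, and there was no replicate to leave out. Every reclustering left all shared cells in their class, except that 1 cell changed class with 2000 variable genes. The trophectoderm-like split moved most, to 38 and 73 cells at a resolution of 0.5, and 15 neighbours gave 3 such clusters, so that setting has no value for it. Of the member counts past 2-fold, those higher in epiblast- than in trophectoderm-like cells went from 1 to 2 without mixed cells, 3 at 1.5-fold and 0 at 4-fold. Those lower went from 3 to 5 without mixed cells, with TMM or median-of-ratios scaling and at 1.5-fold. Members higher in epiblast- than in hypoblast-like cells went from 1 to 2 without mixed cells, at 1.5-fold and without weakly marked hypoblast-like cells, and to 0 at 4-fold. Those lower went from 0 to 2 without mixed cells, and to 1 with at least 9000 genes, 2000 variable genes, the median of cells, TMM or median-of-ratios scaling, 1.5-fold or without weakly marked cells. The count higher in hypoblast- than in trophectoderm-like cells went from 0 to 1 at 1.5-fold, and the count lower from 4 to 1 with a pseudocount of 10 CPM and to 2 at 4-fold or without DNMT1 and TET3. For CCR7-high against CCR7-low cells, the count higher went from 3 to 1 with a pseudocount of 1 CPM or without DNMT1 and TET3, and to 0 with 10 CPM or at 4-fold, and the count lower from 0 to 1 at 1.5-fold. Of the pathway genes, 10 were higher and 5 lower in epiblast- than in trophectoderm-like cells. These became 4 and 3 with a pseudocount of 10 CPM and 3 and 1 at 4-fold, and the first became 19 at 1.5-fold. Against hypoblast-like cells, 7 and 4 became 4 and 2 with 10 CPM, 11 and 7 at 1.5-fold and 1 and 1 at 4-fold, and the 7 became 11 with the median of cells. Between hypoblast- and trophectoderm-like cells, 7 and 4 became 2 and 2 with 10 CPM and 2 and 0 at 4-fold, and the 7 became 4 among genes at 10 CPM. Between CCR7-high and CCR7-low cells, 5 and 4 became 10 and 8 at 1.5-fold and 0 and 0 at 4-fold, and the 5 became 3 with a pseudocount of 1 CPM, 2 with 10 CPM and 3 among genes at 10 CPM. The DNMT3A share of 15.7% in epiblast-like cells became 16.2% with 2000 variable genes and 19.4% without mixed cells. That of 7.07% in hypoblast-like cells became 6.62% and 6.56% in these settings, 6.86% in thinned cells and 5.04% without weakly marked cells. In trophectoderm-like cells 4.84% became 5.09% in thinned cells. The TET2 share of 20.5% in epiblast-like cells became 12.8% without mixed cells and 19.9% in thinned cells. That of 26.8% in hypoblast-like cells became 25.8% with at least 7000 genes, 25.1% with 9000, 27.5% with 2000 variable genes, 24.4% without mixed cells, 26.1% in thinned cells and 18.97% without weakly marked cells. The 69.4% of trophectoderm-like cells became 69.8% and 69.6% with at least 7000 and 9000 genes, 68.5% in thinned cells and 68.9% without the deepest cell. The causes were not tested. In 420 other recomputations counts stayed within 1.5 times and shares within their interval (the members lower in hypoblast- than in trophectoderm-like cells went from 4 to 3 with either scaling), and no ratio past 2-fold changed sign. Recomputed levels, shares of cells with a read, single ratios and shares of all genes were labelled apart. Of these, 220 left their interval, crossed the 2-fold limit or changed by more than 1.5 times, and 1398 did not. The order of cells, the deepest cell, DNMT1 with TET3, the weakly marked cells and the cell with most reads of a member were chosen as alternatives after the data were seen. With 1 read counting as detection, DNMT1 and TET3 are limited by depth.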
